A study of Homo sapiens with 12 samples.

Results

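The MYC network genes described here are 9 of the 58288 genes in the count table of this study, matched by gene identifier to the symbols *MYC*, *MAX*, *MXD1*, *MXD3*, *MXD4*, *MXI1*, *MNT*, *MLX* and *PVT1*. The matching used gene names and no measured value, but the list of genes was chosen with earlier results of these data known. All 9 genes had enough reads to be tested in both cell types.

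MYC is a transcription factor that binds DNA only as a dimer with its partner MAX, at the E-box sequence CACGTG, and drives genes for ribosome production, metabolism and cell division. MAX also pairs with the MXD proteins (MXD1, MXD3, MXD4 and MXI1) and with MNT, which occupy the same sites and recruit SIN3 corepressors, so the antagonists compete with MYC for a shared partner. MLX is a MAX-like protein that pairs with MXD1, MXD4, MNT and with the glucose-responsive factors MLXIP and MLXIPL. *PVT1* is a long noncoding RNA gene that lies next to *MYC*. HL-60 cells, a human promyelocytic leukaemia line, carry extra copies of *MYC*, and a fall in *MYC* RNA is a classical feature of their differentiation.

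RNA was sequenced from HL-60/S4, a fast-differentiating subline of HL-60, after ribosomal RNA depletion. Undifferentiated cells (promyelocytes) and cells held for 4 days in 1 µM all-trans retinoic acid (ATRA; granulocytes) were treated for 2 h with 16 ng/mL TNF-α or with an equal volume of water (vehicle), all in calcium-supplemented medium and all at passage 8. Each of the 4 groups had 3 libraries, each from its own flask of this single cell line, so p-values describe the spread between flasks and not between donors. Promyelocytes and granulocytes were run as separate experiments.

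Library totals were between 22829189 and 31895061 assigned read pairs, with a median of 28233190. The labels were checked against marker genes. All 5 promyelocyte markers (*MPO*, *ELANE*, *AZU1*, *PRTN3*, *CTSG*) were lower in vehicle granulocytes than in vehicle promyelocytes, and all 6 granulocyte markers (*ITGAM*, *CD38*, *CSF3R*, *NCF1*, *CYBB*, *FPR1*) were higher. The 5 macrophage markers (*CD14*, *CD163*, *MRC1*, *C1QA*, *C1QB*) summed to between 0.305 and 1.01 transcripts-per-million units (TPM) in any library, the 3 T cell markers to between 2.74 and 5.04, the 3 B cell markers to between 6.57 and 22.5 and the 3 erythroid markers to between 0.0415 and 0.163, and the B cell marker *MS4A1* and the erythroid markers *HBB* and *HBA1* had no read in any library. In bulk RNA, fewer cells of a type and less RNA per cell cannot be told apart.

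The E-box is the sequence through which the network acts, and 3 of the 7 members searched carry it themselves within the 250 bases before their start. RefSeq promoters of 7 of the members were searched (10 promoters, GRCh38.p14). Those of *MYC* and *PVT1* were left out of the search by choice, so the counts below say nothing of these genes. The promoters of *MXD4*, *MNT* and *MLX* each held 1 match to CACGTG, which reads the same on both strands, and the other 7 promoters (of *MAX*, *MXD1*, *MXD3* and *MXI1*) held none. Of all 35116 human promoters of this length, 6.34% held a match. All 3 sites found are shown. With TNF-α, *MXD4* and *MNT* fell in promyelocytes, and *MLX* was not called there when promyelocytes were fitted alone. *MXD4* fell in granulocytes as well, where the calls of *MNT* and *MLX* depended on the scale. A link between site and response was not tested. Each is given with 10 flanking bases on either side, 5′ to 3′ on the strand of the gene, with the E-box in capitals. The site of *MXD4* (chr4:2262332-2262357, minus strand) begins 238 bases before the start, that of *MNT* (chr17:2401238-2401263, minus strand) 193 bases before it, and that of *MLX* (chr17:42567040-42567065, plus strand) 50 bases before it. These distances are counted from the start used for each promoter, which differs from the ends of the counted genes given below.
MXD4: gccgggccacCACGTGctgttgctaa
MNT: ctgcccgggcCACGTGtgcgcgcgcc
MLX: gggcgcgggtCACGTGggcacgccac
The kappaB consensus, the letter pattern bound by NF-κB, the factor through which TNF-α acts on many genes, was in none of the 10 promoters and in 9.96% of all promoters. These are matches of letters in a window and not measurements of binding.

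*MYC* itself (ENSG00000136997.17, chr8:127735434-127741434, plus strand, hg38) had the highest level and the largest response of the members in promyelocytes. In promyelocytes with vehicle its 3 libraries held 1993, 1883 and 1764 normalised counts-per-million units (CPM), and with TNF-α they held 770, 764 and 858. Every treated library was below every vehicle library. The fall was 2.32-fold (log2 fold change −1.21 ± 0.063 SE, n = 3 against 3, edgeR quasi-likelihood adjusted p = 1.37e-11). Of the 16250 genes tested in promyelocytes, 14.8% were called at an adjusted p under 0.05, with 8.15% higher and 6.65% lower.

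In granulocytes *MYC* started from a far lower level. The vehicle libraries held 74.8, 78.7 and 82.0 CPM and the TNF-α libraries 83.2, 73.0 and 70.9 CPM. These ranges overlapped. The log2 fold change was −0.07 ± 0.057 (adjusted p = 0.341). With the library totals as the scale in place of TMM normalisation it was −0.20 (adjusted p = 0.00312), and with totals of counts per gene length, the scale of TPM, it was −0.31 (adjusted p = 9.99e-05). Those scales also moved the median of all genes in granulocytes, by −0.13 and −0.24 on the log2 scale. With trends in GC content and length removed, which moved that median by −0.04, the value was −0.14 (adjusted p = 0.0149), so that *MYC* was called lower in granulocytes under these 3 settings. The log2 fold change was less negative in granulocytes than in promyelocytes, by 1.18 ± 0.092 (edgeR interaction, adjusted p = 2.05e-10), where 24.0% of 18124 genes were called. This difference was between 0.88 and 1.18 under the other scalings and models tried.

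*MYC* was 23.9-fold lower in vehicle granulocytes than in vehicle promyelocytes (log2 −4.58 ± 0.074, edgeR adjusted p = 1.33e-26). Its mean level per length was 1806 TPM in vehicle promyelocytes, rank 57 of the 58288 genes, and 792 TPM after TNF-α, rank 127. It was 85.9 TPM in vehicle granulocytes, rank 1491, and 69.4 TPM after TNF-α, rank 1757. Even with TNF-α, promyelocytes thus held more *MYC* RNA than granulocytes in every library. Since the cell types were run as separate experiments, differentiation and experiment cannot be told apart in any level set between them. In that comparison 72.0% of 18124 genes were called, 35.7% higher and 36.3% lower in granulocytes.

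**Figure D1:**
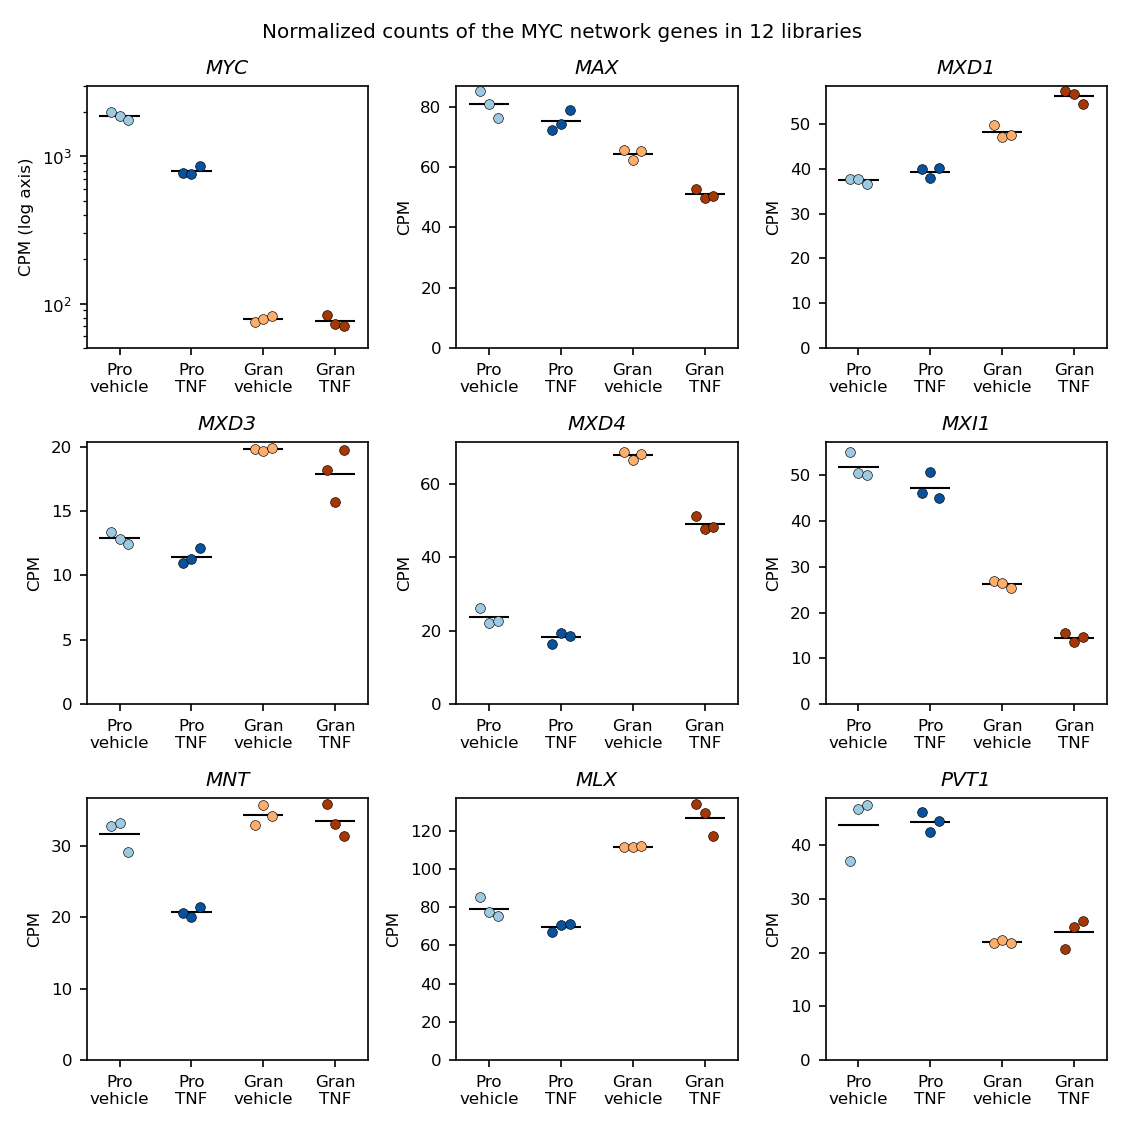
Normalised counts in CPM (vertical axis, from 0 except for *MYC*, which has a log axis) of the 9 genes in each of 12 libraries. Points are libraries, bars are group means (n = 3), and blue marks promyelocytes and orange granulocytes, with the darker shade for TNF-α. *MYC* fell from 1764 to 1993 CPM with vehicle to 764 to 858 CPM with TNF-α in promyelocytes.

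Promyelocyte markers also moved with the fall of *MYC*. With TNF-α in promyelocytes 3 of the 5 fell, namely *MPO* (−0.23, adjusted p = 0.0155), *PRTN3* (−0.30, adjusted p = 0.00785) and *CTSG* (−0.25, adjusted p = 0.0414), and the 5 together went from a summed level of 8186 to 8450 TPM to one of 6475 to 7680 TPM. Of the 6 granulocyte markers, *NCF1* (1.25) and *CYBB* (0.96) rose and *CSF3R* (−0.45) fell (*NCF1* may share reads with near-identical pseudogenes), with the sum at 94.1 to 100.5 TPM in vehicle libraries and 169.5 to 195.1 TPM in treated ones. The part of these in the change of *MYC* was not tested.

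Among the genes whose pattern over the 12 libraries was most like that of *MYC*, by Pearson correlation of log2 CPM among 6096 well expressed genes, were *SEPTIN9*, *MPO*, *RTL10* and *TGFBRAP1*, each with r = 0.99. The points share 2 cell types that differ widely in most genes, so the value mainly describes that division. *MPO*, which encodes the myeloperoxidase of azurophil granules, had mean levels of 6427, 5376, 2020 and 1986 CPM in vehicle and TNF-α promyelocytes and vehicle and TNF-α granulocytes.

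*MAX* (ENSG00000125952.18, chr14:65006174-65102695, minus strand), the obligate partner of MYC and of its antagonists, fell in granulocytes and was not called in promyelocytes. In promyelocytes it measured 85.1, 81.0 and 76.3 CPM with vehicle and 72.2, 74.4 and 78.7 CPM with TNF-α, which overlapped (log2 −0.08 ± 0.061, adjusted p = 0.432). In granulocytes it measured 65.5, 62.2 and 65.3 CPM with vehicle and 52.5, 49.7 and 50.5 CPM with TNF-α. Those groups did not overlap, and *MAX* fell by 0.35 ± 0.054 on the log2 scale (edgeR adjusted p = 1.06e-06). The difference between the responses was −0.23 ± 0.081 (edgeR adjusted p = 0.0365), which leaving out any 1 of 7 of the 12 libraries moved past the threshold. Those were pro_vehicle replicates 2 and 3, pro_TNF replicate 3, gran_vehicle replicates 1 and 3 and gran_TNF replicates 2 and 3 (adjusted p up to 0.10). With vehicle, *MAX* was lower in granulocytes than in promyelocytes (log2 −0.33 ± 0.057, edgeR adjusted p = 9.79e-06). With totals per length this value was −0.14 and was not called (edgeR adjusted p = 0.0681). In vehicle promyelocytes *MYC* had 1806 TPM against 52.6 TPM for *MAX*, and in vehicle granulocytes 85.9 TPM against 47.7 TPM.

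Among the antagonists, *MNT* and *MXD4* fell with TNF-α in promyelocytes and *MXI1* and *MXD4* in granulocytes. Over all 9 members, 3 were called in promyelocytes, all lower (*MYC*, *MNT*, *MXD4*), where 6.65% of all genes were lower, and 5 were called in granulocytes, 3 lower (*MXI1*, *MXD4*, *MAX*) and 2 higher (*MXD1*, *MLX*). In granulocytes 49.2% of the 16944 genes tested were called, 24.4% higher and 24.8% lower, so 5 of 9 there is near the share of all genes. The granulocyte split depended on the setting, with 0 members higher and 6 lower on the scales of library totals and totals per length, and 2 higher and 6 lower with GC and length trends removed. The median log2 fold change was −0.14 over the members and −0.01 over all genes in promyelocytes, and −0.07 and −0.00 in granulocytes.

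*MNT* (ENSG00000070444.14, chr17:2384060-2401118, minus strand), the broadly expressed antagonist of MYC, held 32.8, 33.3 and 29.1 CPM in vehicle promyelocytes and 20.6, 20.1 and 21.5 CPM with TNF-α. Every treated library was below every vehicle library, and the fall was 1.5-fold (log2 −0.59 ± 0.076, edgeR adjusted p = 1.07e-05). In granulocytes it held 32.9, 35.7 and 34.2 CPM with vehicle and 35.9, 33.0 and 31.4 CPM with TNF-α, and the ranges overlapped (log2 −0.05 ± 0.065, adjusted p = 0.540). There *MNT* was lower and past the threshold with library totals (−0.18), with totals per length (−0.29) and with trends in GC content and length removed (−0.22). The responses differed by 0.58 ± 0.10 (edgeR interaction, adjusted p = 1.04e-04), a difference that was 0.27 (adjusted p = 0.0694) with totals per length. The vehicle levels of the cell types did not differ beyond the threshold (log2 0.11 ± 0.070, adjusted p = 0.151), although this value was −0.19 (adjusted p = 0.00592) once GC and length trends were removed, and 0.19 (adjusted p = 0.0149) and 0.30 (adjusted p = 0.00125) with library totals and totals per length.

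*MXI1* (ENSG00000119950.20, chr10:110207605-110287365, plus strand), the MXD2 protein, showed the opposite division. In promyelocytes it held 55.2, 50.5 and 50.0 CPM with vehicle and 46.2, 50.8 and 45.0 CPM with TNF-α, which overlapped (log2 −0.11 ± 0.066, adjusted p = 0.312). In granulocytes it went from 26.9, 26.5 and 25.4 CPM to 15.4, 13.5 and 14.7 CPM. All treated libraries were lower, by 1.83-fold (log2 −0.87 ± 0.077, edgeR adjusted p = 3.51e-12), which was the largest response of any member in granulocytes. The difference between the responses was −0.72 ± 0.10 (edgeR interaction, adjusted p = 4.09e-06). With vehicle, *MXI1* was 1.98-fold lower in granulocytes (log2 −0.98 ± 0.068, edgeR adjusted p = 5.13e-13).

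*MXD4* (ENSG00000123933.16, chr4:2247432-2262294, minus strand), an antagonist associated with differentiated cells, was the member called lower in both cell types in the fits used above. *MYC* and *MNT* were called lower in both as well with library totals, totals per length or GC and length trends removed. The *MXD4* libraries held 26.1, 22 and 22.7 CPM in vehicle promyelocytes and 16.5, 19.5 and 18.6 CPM with TNF-α (log2 −0.35 ± 0.088, edgeR adjusted p = 0.00886). Without replicate 1 of pro_vehicle, the highest of these libraries, the fall was 0.28 and was no longer past the threshold (adjusted p = 0.0585). In granulocytes it held 68.8, 66.3 and 68.2 CPM with vehicle and 51.1, 47.6 and 48.2 CPM with TNF-α, with no overlap (log2 −0.48 ± 0.054, edgeR adjusted p = 1.56e-09). The difference between the responses was −0.09 ± 0.10 (adjusted p = 0.557), which reached −0.37 (adjusted p = 0.00282) with GC and length trends removed and −0.40 (adjusted p = 0.00414) with totals per length. With vehicle, *MXD4* was 2.87-fold higher in granulocytes than in promyelocytes (log2 1.52 ± 0.070, edgeR adjusted p = 8.94e-17), the largest increase of any member.

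*MXD1* (ENSG00000059728.10, chr2:69897688-69942945, plus strand), the MAD1 protein that is induced in myeloid differentiation, held 37.8, 37.8 and 36.7 CPM in vehicle promyelocytes and 40.0, 37.9 and 40.1 CPM with TNF-α (log2 0.10 ± 0.064, adjusted p = 0.367). In granulocytes it held 49.7, 47.1 and 47.5 CPM with vehicle and 57.4, 56.8 and 54.4 CPM with TNF-α. The treated libraries were all higher (log2 0.21 ± 0.055, edgeR adjusted p = 0.00163), but the value was 0.08 (adjusted p = 0.235) with library totals and −0.03 (adjusted p = 0.725) with totals per length, so its direction depended on the scale. The difference between the responses was 0.15 ± 0.081 (adjusted p = 0.182). With vehicle, *MXD1* was 1.29-fold higher in granulocytes (log2 0.36 ± 0.057, edgeR adjusted p = 2.78e-06). Of its exonic bases, 3.73% are shared with *SNRNP27* on the same strand.

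*MXD3* (ENSG00000213347.10, chr5:177301461-177312757, minus strand), the MXD protein of dividing cells, was the lowest member in vehicle promyelocytes at 7.21 ± 0.14 TPM (SD, n = 3). In promyelocytes it ran from 12.5 to 13.4 CPM with vehicle and from 11 to 12.2 CPM with TNF-α, with no overlap but no call (log2 −0.14 ± 0.094, adjusted p = 0.358). In granulocytes it held 19.8, 19.7 and 19.9 CPM with vehicle and 18.2, 15.7 and 19.7 CPM with TNF-α (log2 −0.17 ± 0.081, adjusted p = 0.0870). That value was −0.24 (adjusted p = 0.0236) without replicate 3 of gran_TNF, −0.30 with library totals, −0.41 with totals per length and −0.31 with GC and length trends removed, each past the threshold. With vehicle, *MXD3* was 1.54-fold higher in granulocytes (log2 0.62 ± 0.086, edgeR adjusted p = 3.66e-07). Since 18% of its exonic bases are shared with *RAB24* on the same strand, its counts are uncertain.

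**Figure D2:**
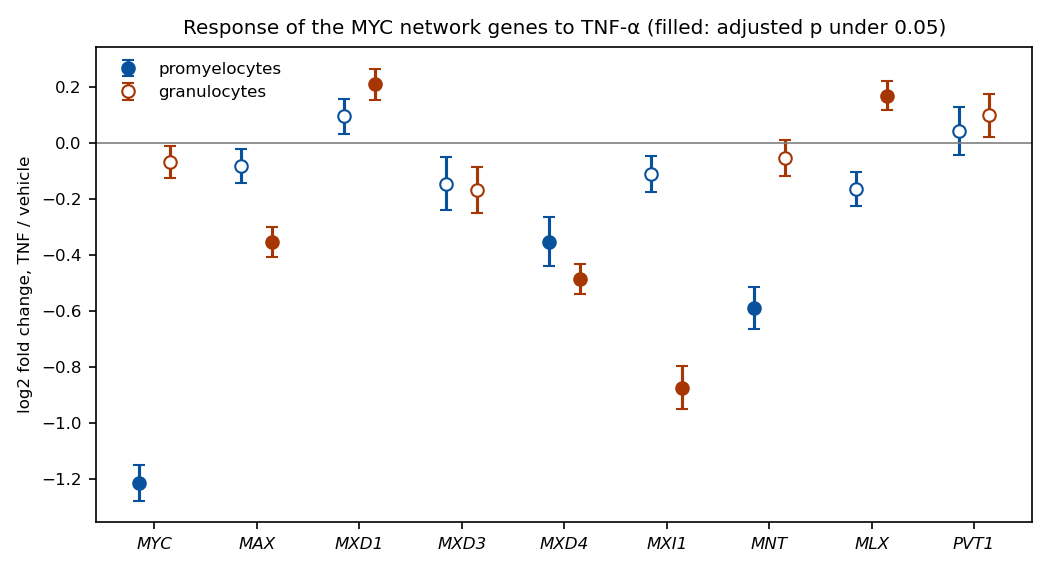
Log2 fold change of TNF-α against vehicle (vertical axis, with bars of 1 SE from the edgeR fit, 3 against 3 libraries) for each gene in promyelocytes (blue) and granulocytes (orange). Filled points passed an adjusted p of 0.05 with TMM normalisation, and *MYC* and *MNT* fell in promyelocytes while *MXI1* and *MAX* fell in granulocytes. The granulocyte points of *MXD1* and *MLX* lie below 0 on the scale of totals per length.

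The log2 ratio of *MXD1* to *MYC* counts within each library does not depend on how libraries are scaled, and shows only that these genes changed unequally. It was −5.72, −5.64 and −5.59 in vehicle promyelocytes and −4.27, −4.33 and −4.42 with TNF-α. In granulocytes it was −0.59, −0.74 and −0.79 with vehicle and −0.54, −0.36 and −0.38 with TNF-α. The treated libraries were higher than the vehicle libraries in both cell types, by 1.31 on the log2 scale (2.48-fold) in promyelocytes and by 0.28 (1.21-fold) in granulocytes. The two-sided exact permutation test gave p = 0.1 in each, the smallest that 3 against 3 libraries allow.

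*MLX* (ENSG00000108788.11, chr17:42567068-42573239, plus strand), the centre of the parallel branch of the network, held 85.1, 77.4 and 75.3 CPM in vehicle promyelocytes and 67, 70.7 and 71.3 CPM with TNF-α, with no overlap (log2 −0.16 ± 0.061, adjusted p = 0.0848). It passed the threshold when all 12 libraries were fitted together (−0.19, adjusted p = 0.0296). In granulocytes it held 111.3, 111.7 and 111.9 CPM with vehicle and 133.8, 129.1 and 117.4 CPM with TNF-α (log2 0.17 ± 0.051, edgeR adjusted p = 0.00577). The increase was 0.04 (adjusted p = 0.539) with library totals and became −0.07 (adjusted p = 0.319) with totals per length. The difference between the responses was 0.37 ± 0.082 (edgeR interaction, adjusted p = 0.00132), and 0.06 (adjusted p = 0.630) with totals per length. With vehicle, *MLX* was 1.41-fold higher in granulocytes (log2 0.49 ± 0.058, edgeR adjusted p = 2.18e-08).

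*PVT1* (ENSG00000249859.9, chr8:127794533-128101253, plus strand) was not called with TNF-α in either cell type. Its libraries held 37.1, 46.8 and 47.4 CPM in vehicle promyelocytes and 46.2, 42.5 and 44.5 CPM with TNF-α (log2 0.04 ± 0.085, adjusted p = 0.783), and replicate 1 of pro_vehicle lay below the other libraries. Without it the value was −0.07 (adjusted p = 0.609). In granulocytes it held 21.8, 22.3 and 21.8 CPM with vehicle and 20.8, 24.7 and 25.9 CPM with TNF-α (log2 0.10 ± 0.077, adjusted p = 0.296), which was 0.19 (adjusted p = 0.0423) without replicate 1 of gran_TNF, −0.03 with library totals and −0.14 with totals per length. With vehicle, *PVT1* was 1.99-fold lower in granulocytes (log2 −0.99 ± 0.085, edgeR adjusted p = 5.09e-11), against the 23.9-fold difference of *MYC*. The counted *PVT1* exons share 6.48% of their bases with other same-strand genes, including the microRNA gene *MIR1204*.

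Of the 51 other genes within 2 Mb of *MYC*, 12 could be tested in promyelocytes, and none was called by edgeR with TNF-α. Of all genes 14.8% were called there, so no call among 12 says little about this region. In granulocytes 9 could be tested, with 2 higher (*LINC00861* and *PRNCR1*) and 2 lower (*MIR1206* and *RFPL4AP5*), from 0 to 77 reads a library. DESeq2 called 0 genes there in promyelocytes too, where 2 genes had an unadjusted p under 0.05 by edgeR, and 2 higher and 0 lower in granulocytes. Between the vehicle groups 2 of 15 were higher and 8 lower in granulocytes. These called shares are near those of all genes (49.2% with TNF-α in granulocytes and 72.0% between the vehicle groups). Among those lower were the noncoding RNA genes *CASC11*, with 69 to 81 reads in vehicle promyelocytes and 4 to 10 in vehicle granulocytes (log2 −3.20 ± 0.33, edgeR adjusted p = 2.23e-09), and *CCDC26*, with 231 to 274 and 7 to 13 reads (log2 −4.54 ± 0.21, edgeR adjusted p = 1.34e-16).

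**Figure D3:**
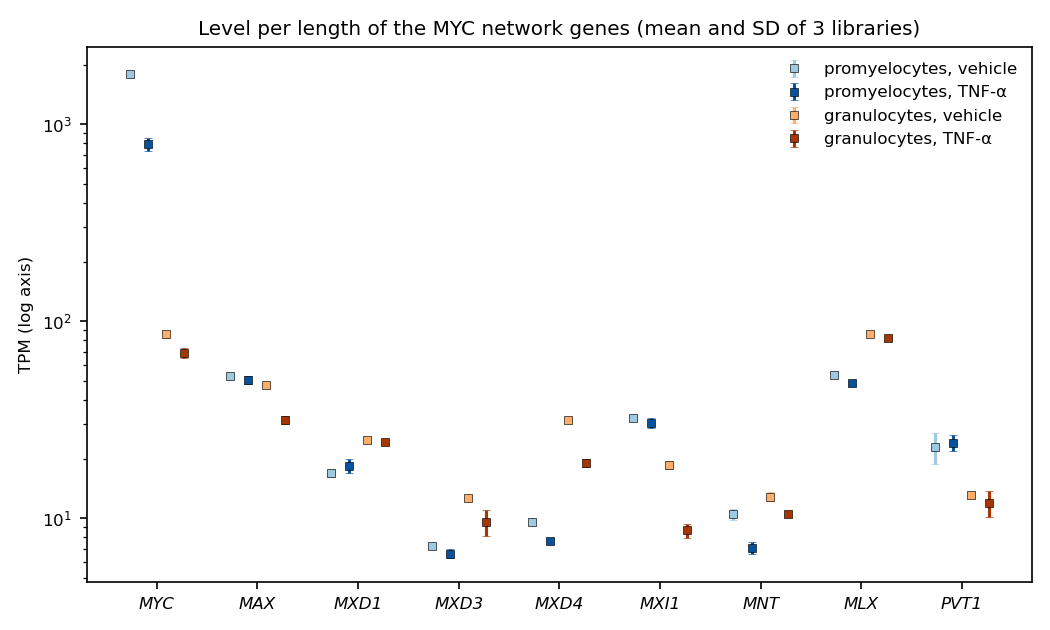
Level per length in TPM (log axis) of the 9 genes in 4 groups, as mean and SD of 3 libraries. *MYC* at 1806 TPM in vehicle promyelocytes stands above all other members, and at 85.9 TPM in vehicle granulocytes it is level with *MLX* at 86.0 TPM. TPM depends on the whole library, and differences with TNF-α in granulocytes on this scale run lower than those from the TMM-normalised counts.

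The order of the members by level per length also differed between the groups. In vehicle promyelocytes *MYC* (1806 TPM) was followed by *MLX* (53.6 TPM), *MAX* (52.6 TPM), *MXI1* (32.5 TPM), *PVT1* (23.1 TPM), *MXD1* (17 TPM), *MNT* (10.5 TPM), *MXD4* (9.63 TPM) and *MXD3* (7.21 TPM), and the libraries of *MLX* and *MAX* and of *MNT* and *MXD4* overlapped. In vehicle granulocytes the order was *MLX* (86.0 TPM), *MYC* (85.9 TPM), *MAX* (47.7 TPM), *MXD4* (31.5 TPM), *MXD1* (24.9 TPM), *MXI1* (18.7 TPM), *PVT1* (13.1 TPM), *MNT* (12.9 TPM) and *MXD3* (12.6 TPM), with overlap between *MLX* and *MYC*, between *PVT1* and *MNT* and between *MNT* and *MXD3*. *MXD4* thus stood second from last in promyelocytes and above the other antagonists in granulocytes, while *MXI1*, the highest antagonist in promyelocytes, stood below *MXD4* and *MXD1*.

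With TNF-α the order in promyelocytes was the same for *MYC*, *MXI1*, *PVT1*, *MXD1* and *MXD3*. *MAX* stood above *MLX* and *MXD4* above *MNT*, and each of those neighbouring pairs overlapped. The libraries of *MNT* and *MXD3*, in the last place, overlapped too. In TNF-α granulocytes *MXI1* fell to the last place at 8.68 TPM, where its libraries overlapped with those of *MXD3*.

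The remaining factors of the network were measured at very unequal levels. *MYCN*, a MYC paralogue of neural and embryonic tissue, had 0 reads in all 12 libraries, which allows at most 0.0941 to 0.131 CPM by library for 3 counts. *MYCL*, a paralogue found in dendritic cells, had 9 to 10 reads in vehicle granulocytes and 36 to 56 with TNF-α, where it rose (log2 2.38 ± 0.34, edgeR adjusted p = 1.98e-07). In promyelocytes *MYCL* had 3 to 9 reads and was not tested. *MGA*, a large protein that dimerises with MAX, fell in granulocytes (log2 −0.29 ± 0.047, edgeR adjusted p = 2.39e-06) from 227 to 187 CPM, and measured −0.07 in promyelocytes without a call.

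*MLXIP*, the glucose-responsive partner of MLX, fell in both cell types (edgeR). Its log2 fold change was −0.46 in granulocytes (adjusted p = 3.81e-09), against −0.26 with an adjusted p of 0.0124 in promyelocytes. *MLXIPL*, its liver paralogue, had no read in the promyelocyte libraries and 41 to 62 in vehicle granulocytes, at least 16.4-fold higher against a floor of 3 counts per library. The genes known to be driven by the MLX branch moved apart. *TXNIP*, an inhibitor of glucose uptake, fell in both cell types (−0.25, adjusted p = 0.00583 and −0.71, adjusted p = 3.78e-15), and its paralogue *ARRDC4* rose in granulocytes (1.33 ± 0.059, adjusted p = 6.81e-21) and measured 0.11 in promyelocytes. With totals per length *MLXIP* (adjusted p = 0.0866) and *TXNIP* (adjusted p = 0.0595) were not called in promyelocytes. The responses of both differed between the cell types, by −0.43 (*TXNIP*, adjusted p = 7.59e-05) and 1.26 (*ARRDC4*, adjusted p = 3.81e-10, edgeR interaction).

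Of 14 genes for cofactors of MYC or of its antagonists, 1 was higher and 0 lower with TNF-α in promyelocytes (by edgeR and by DESeq2, and with 2 higher and 0 lower at an unadjusted p under 0.05), and 5 were higher and 3 lower in granulocytes. These shares stand beside 14.8% and 49.2% of all genes called, and 8 of 14 is near the latter. *ZBTB17*, the MIZ-1 protein through which MYC represses genes, rose in both (0.39, adjusted p = 0.00133 and 0.51, adjusted p = 1.41e-07). In granulocytes the MYC cofactor *WDR5* (0.23) and the corepressor scaffold *SIN3A* (0.30) rose, and the scaffold *SIN3B* (−0.30), the acetyltransferase *KAT5* (−0.22) and the corepressor *NCOR1* (−0.21) fell. With totals per length the granulocyte split of this list turned to 1 higher and 9 lower. Of 8 genes for the turnover of MYC protein, *CIP2A* (0.39) and the ubiquitin ligase subunit *FBXW7* (0.21, edgeR adjusted p = 0.0433) were higher in promyelocytes. The call of *FBXW7* was lost with the replicate block, with GC and length trends removed, with library totals and with totals per length (adjusted p from 0.0771 to 0.108). In granulocytes 6 were higher and 2 lower with TMM, where 24.4% and 24.8% of all genes were, among them the deubiquitinases *USP28* (0.35) and *USP36* (0.21) and *FBXW7* (0.32) higher and *SKP2* (−0.30) and *GSK3B* (−0.26) lower, but with totals per length 0 were higher and 2 lower.

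Few of the genes that MYC is known to activate were called in promyelocytes after 2 h of TNF-α, when *MYC* was 2.32-fold lower. Of all genes 14.8% were called there, so small counts in lists of 20 genes do not set these lists apart. Of 20 ribosome biogenesis genes in promyelocytes, 1 rose (*GNL3*, 0.21, adjusted p = 0.0123) and 1 fell (*UBTF*, −0.21, adjusted p = 0.0160), and the list's median log2 fold change was 0.02 against −0.01 for all genes. With the replicate block neither gene was called (edgeR adjusted p = 0.0660 and 0.0706), and with totals per length *UBTF* was not (adjusted p = 0.134). With all 12 libraries in 1 fit, 1 gene of this list was higher and 2 were lower. *NCL*, which encodes nucleolin, measured 0.01 and was not called. Of 20 growth and metabolism genes, 1 rose (*HSPE1*, 0.32, adjusted p = 0.00183) and none fell in the edgeR fit used above, with a median of −0.01. With GC and length trends removed, edgeR called 1 higher and 2 lower. It called 1 higher and 1 lower with all 12 libraries in 1 fit, and likewise without a filter. DESeq2 called 2 higher and 0 lower, and at an unadjusted p under 0.05 edgeR had 4 in each direction. Of these genes *ODC1* (ornithine decarboxylase) and *LDHA* (lactate dehydrogenase) each measured −0.01. A p above the threshold does not show that these genes were unaffected, and RNA amounts 2 h after treatment do not measure transcription.

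Between the vehicle groups the same lists were lower in granulocytes almost throughout. All 20 ribosome biogenesis genes were lower, with a median of −1.99 and a range from −2.38 (*NOLC1*) to −0.30 (*UBTF*), where 36.3% of all genes were lower and the median of all genes was 0.01. Of the 20 growth genes 19 were lower, with a median of −2.03, the exception being *CCND2* (0.09). *ODC1* measured −2.74 and *LDHA* −2.48. With totals per length, 19 of 20 were lower in each list and 1 growth gene was higher.

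In granulocytes with TNF-α, where *MYC* RNA was low in both groups, 5 of 20 ribosome biogenesis genes were higher and 4 lower with a median of 0.06. The largest changes were in *PPAN* (0.42), *NOP16* (0.23), *PES1* (0.19), *WDR12* (−0.43), *UBTF* (−0.26) and *RRP12* (−0.25). Of the growth genes 6 were higher and 4 lower of 19 tested, led by *TFRC*, the transferrin receptor (0.63), *CCND2* (0.36), *SHMT2* (0.26), *PPAT* (−0.48), *AMD1* (−0.30) and *IMPDH2* (−0.19). With totals per length these splits were 0 higher and 12 lower, and 1 higher and 13 lower, so the balance of directions rests on the normalisation. Both lists had shares of called genes near the 49.2% of all genes.

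**Figure D4:**
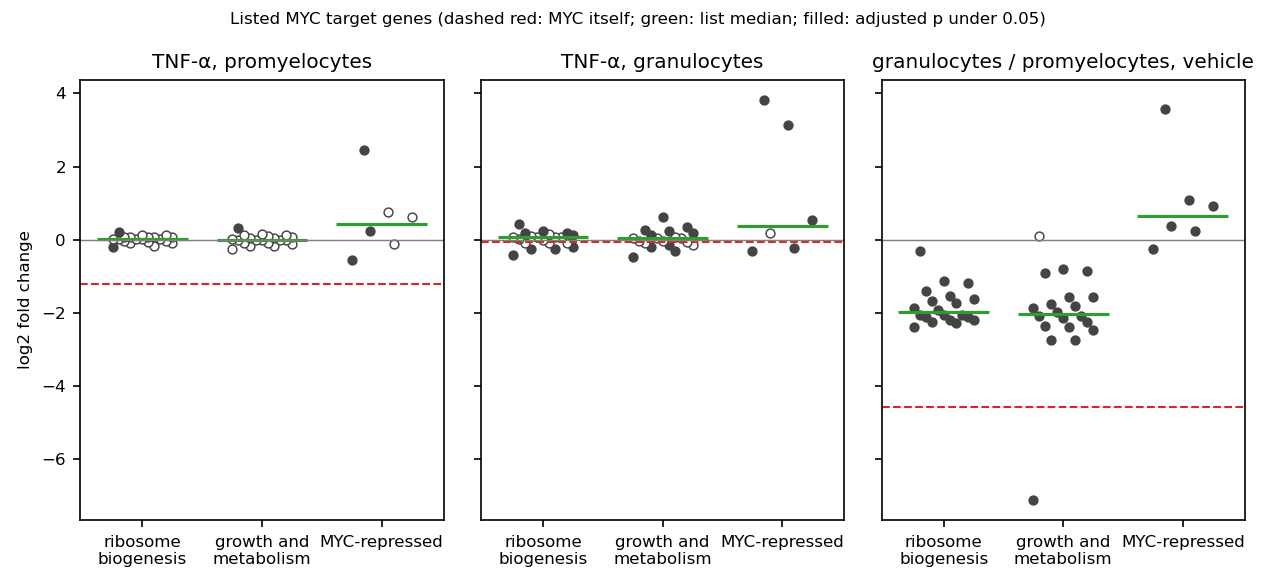
Log2 fold changes (vertical axis) of listed ribosome biogenesis (20 genes), growth and metabolism (20 genes, 19 tested with TNF-α in granulocytes) and MYC-repressed genes (6 genes) in the 3 comparisons. Filled points passed an adjusted p of 0.05 with TMM, green bars are list medians and the dashed red line is *MYC* itself. In promyelocytes *MYC* lies at −1.21 with TNF-α and the medians of the activated lists at 0.02 and −0.01, while in vehicle granulocytes against vehicle promyelocytes those medians lie at −1.99 and −2.03.

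Genes that MYC is known to repress were read in 6 examples, of which 2 rose and 1 fell in promyelocytes and 3 rose and 2 fell in granulocytes, beside 14.8% and 49.2% of all genes called. *CDKN2B*, the cell cycle inhibitor p15, rose from 40 to 50 reads with vehicle to 219 to 283 with TNF-α in promyelocytes (log2 2.47 ± 0.16, edgeR adjusted p = 4.23e-10) and from 69 to 94 to 553 to 733 in granulocytes (log2 3.14 ± 0.11, edgeR adjusted p = 5.78e-24). *CDKN1A*, the inhibitor p21, rose in granulocytes from 30 to 48 reads to 407 to 535 (log2 3.82 ± 0.14, edgeR adjusted p = 9.39e-24). In promyelocytes it went from 15 to 24 reads to 27 to 37 without a call (log2 0.75, adjusted p = 0.133). The responses of *CDKN1A* differed by 3.11 ± 0.33 (edgeR interaction, adjusted p = 4.54e-08), with the larger one in granulocytes.

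*CDKN1B*, the inhibitor p27, moved in opposite directions, falling in granulocytes (−0.24, adjusted p = 4.14e-04) and rising in promyelocytes (0.24, edgeR adjusted p = 0.0116). *NDRG1*, a stress-response gene, fell in both (−0.56, adjusted p = 1.06e-05 and −0.32, adjusted p = 2.09e-05). *GADD45A*, a growth arrest gene, rose in granulocytes (0.54, adjusted p = 5.56e-05) and measured −0.11 in promyelocytes.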

How the data were processed

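RNA-seq of 12 HL-60/S4 libraries (4 groups of 3, grouped by the sample labels) was analysed. The deposited values are counts of read pairs per gene, not normalised, which per the methods and file header the authors made by aligning to hg38 with STAR 2.5.3a and counting GENCODE 27 genes on the matching strand with featureCounts 1.5.2. Reads shared by overlapping genes can be lost or split. DESeq2 1.16.1 is also among the submitters' tools. Only the counts and gene lengths were used here.

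Symbols were matched for 57532 identifiers with a GENCODE 44 annotation. edgeR 4.0.16 (R 4.3.3) was run with TMM, filterByExpr (minimum count 10, minimum total 15) and the quasi-likelihood test, with Benjamini-Hochberg adjustment over all tested genes and a threshold of 0.05. Each cell type was fitted alone, and the interaction and the vehicle levels came from 1 fit of all 12 libraries. CPM in the text use TMM over 12 libraries, and TPM are counts per length. The script recovered known changes in simulated counts. Alternatives were DESeq2 1.42.0, its size factors, no filter, GC and length trends, the replicate block and leaving out each library. Library totals and totals per length were added after seeing the data.

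The members and gene lists were chosen with earlier results of these data known. The genes named were all members, all other network factors and MLX targets, and of each other list the 3 largest increases and decreases among called genes in each cell type, genes near *MYC* and the 5 genes most correlated with it, of which 1 is not reported here. *NCL*, *ODC1* and *LDHA*, the genes at the ends of the level ranges, *CASC11* and *CCDC26* were named after their values were seen. Counting intervals cover counting error only.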

Additional observations from a re-analysis of the deposited data

Results flagged for a closer look

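The responses of 5 genes to TNF-α differed between granulocytes and promyelocytes by a test of the difference itself (the edgeR interaction, granulocyte minus promyelocyte log2 fold change, 6 libraries of each cell type). Of all 18124 genes in this test, 24.0% were called. For *MYC* the difference was 1.18 (adjusted p = 2.05e-10), with a fall in promyelocytes and, by TMM-normalised counts, overlapping libraries in granulocytes. Under other settings given above *MYC* was called lower in granulocytes as well. For *MNT* it was 0.58 (adjusted p = 1.04e-04), again with the fall in promyelocytes. *MLX* had a difference of 0.37 (adjusted p = 0.00132), with all treated libraries lower in promyelocytes and all higher in granulocytes by TMM-normalised counts. For *MXI1* it was −0.72 (adjusted p = 4.09e-06) and for *MAX* −0.23 (adjusted p = 0.0365), with the fall in granulocytes in both. The call of *MAX* was kept in only 5 of 12 fits with 1 library left out, and was lost with the replicate block. With totals per length *MLX* and *MNT* were no longer called for the difference. The cell types were run as separate experiments, so that cell type and experiment cannot be told apart in these differences.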

How the results depend on the processing

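Under the other settings, 244 of 279 values for single members, and 309 of 324 with 1 library left out, kept their direction and side of the threshold. Counts of called members stayed within 1.5 times of those given, except that removing GC and length trends raised the granulocyte count from 5 to 8. Values that changed sign were *MNT* between vehicle groups with GC and length trends removed (−0.19), *PVT1* in promyelocytes without pro_vehicle replicate 1 (−0.074, in a range up to 0.12 with 1 library left out), and, in granulocytes, *MLX* with totals per length (−0.073), *MXD1* with totals per length (−0.031) and *PVT1* with library totals (−0.030) and totals per length (−0.14). For the difference between cell types, *MXD1* was −0.00082 and −0.15 and *PVT1* −0.057 and −0.20 with those same 2 scales, and *MXD3*, at 0.02 with TMM, was −0.043 with DESeq2, −0.035 with its size factors, −0.21 with GC and length trends removed, −0.14 with library totals, −0.068 without a filter, −0.28 with totals per length, and −0.00018, −0.061, −0.016 and −0.014 without gran_TNF replicate 1, gran_TNF replicate 3, pro_TNF replicate 1 and pro_vehicle replicate 1, in a range up to 0.11 with 1 library left out. The cause of these changes was not tested. With 1 library left out, the called genes numbered 1598 to 2475 in promyelocytes (1598 without pro_vehicle replicate 2), 7373 to 8010 in granulocytes, 3604 to 4573 for the difference and 12610 to 13318 between vehicle groups. Called members numbered 2 to 3, 5 to 6, 4 to 5 and 8. The ratio of *MXD1* to *MYC* rose by 1.27 to 1.35 in promyelocytes and by 0.24 to 0.34 in granulocytes. Library totals and totals per length cut the share of called genes that were higher in granulocytes from 49.6% to 31.1% and 20.2%, and for the difference between cell types from 58.9% to 30.8% and 15%. In promyelocytes these shares were 55.1%, 49.1% and 61.8%. For the difference the share was 48.4% with DESeq2 size factors, 46.1% with DESeq2 and 44.2% without a filter.

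Same-numbered vehicle and TNF-α libraries did not deviate together (correlations −0.18 to −0.0057, and 0 of 6 vehicle libraries correlated best with their own number), so the numbers were not read as pairs. With the number as a replicate block, 1833 genes were called in promyelocytes, 7721 in granulocytes, 3972 for the difference and 12920 between vehicle groups, and the called members numbered 3, 5, 4 and 8, with *MAX* losing its call for the difference (−0.23, adjusted p = 0.0559).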
